A study of Mus musculus with 37 samples.

Results

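A set of 10 genes of costimulation and dendritic cell maturation was followed in a list of translated open reading frames (ORFs): Cd80, Cd86, Cd274, Pdcd1lg2, Cd40, Icam1, Cd83, Fscn1, Flt3 and Cd209a. An ORF runs from a start codon to the next stop codon in its frame. All ORFs listed under exactly 1 of these gene names were kept, which gave 18 of the 22367 ORFs listed. Of the 10 genes, 8 had at least 1 ORF, and Flt3 and Cd209a had none. The list was made from ribosome footprints, the RNA fragments of 28 to 34 nucleotides that translating ribosomes shield from nuclease, of bone marrow-derived dendritic cells of C57BL/6J mice aged 6 to 8 weeks. The cells used were the non-adherent and loosely bound fraction of a marrow culture, so other cells of that culture could be among them.

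The study had 37 libraries in 28 groups. Lipopolysaccharide (LPS), the bacterial endotoxin through which dendritic cells are made to mature, was given on day 9 at 100 ng/mL, and cells were taken at 8 times from 0.5 to 12 h. Cycloheximide, which stops elongating ribosomes, was given at 100 ug/mL for 1 min to 16 LPS libraries (2 at each time), to 8 mock-treated libraries and to 2 naive libraries. No inhibitor was given before lysis in 8 LPS libraries and 1 naive library. Harringtonine (1 ug/mL for 5 min) and lactimidomycin (50 ug/mL for 30 min), which hold ribosomes at start codons, were used in 1 library each, on mixtures of LPS times from 0 to 9 h and from 0 to 12 h. The lysis buffer held cycloheximide in all 37 libraries. The list analysed here was made for all libraries together. It gives positions on the mm9 genome build and a score per ORF, assigned by the authors, from 500 to 991. It gives no value per library, so no gene could be compared between LPS, mock and naive cells, no value has a replicate or an error, and the depth per library is unknown. The values below therefore describe which ORFs were listed, where they lie and how they scored, with no test, beside the same measure over all 10418 families of ORFs (all ORFs that carry 1 gene name).

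Naive T cells respond fully to antigen only when the presenting cell also offers costimulatory ligands. CD80 and CD86 on the dendritic cell bind CD28, which activates the T cell, and CTLA-4, which restrains it, while PD-L1 (Cd274) and PD-L2 (Pdcd1lg2) bind the inhibitory receptor PD-1. CD40 receives the returning signal of CD40 ligand on T cells, ICAM-1 holds the 2 cells together through the integrin LFA-1, and CD83 and fascin (Fscn1) are classical marks of a mature dendritic cell.

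The labelled cell type was checked against marker genes, for which presence in the list is the only measure. Of 9 dendritic cell markers, 7 were listed: Itgax, H2-Aa, H2-Ab1, H2-Eb1, Cd74, Zbtb46 and Ccr7, all with a longest ORF that scored from 964 to 990. The 2 markers with no ORF were Flt3 and Cd209a themselves. Scores as high were also reached by markers of other cell types, among them Cd68 of macrophages (991), Ltf of neutrophils (986) and Cd79a of B cells (991). Others scored lower, such as Csf1r (800) and Retnlg (666). Over all protein-coding genes of the RefSeq gene table used for naming, 46.0% had an ORF. All 11 macrophage and monocyte names were listed (2 of them, Adgre1 and Emr1, name 1 gene), as were 9 of 9 neutrophil, 4 of 5 fibroblast, 2 of 5 mast cell and 1 of 6 B cell markers, and 0 of 11 T cell markers. Macrophages share several of these genes with dendritic cells, Icam1, Cd40 and Cd86 are also made by macrophages, and the part of other cells in the values below was not tested.

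Of the protein-coding genes in the RefSeq gene table used for naming, 46.0% had an ORF in the list, against 8 of the 10 genes here. The longest ORF of each gene is called its main ORF. It was not compared with the annotated protein of the gene, so it need not be the form usually made. Main ORFs of the 8 genes had 196 to 537 codons (median 299.5, against 435 over all families) and scores from 591 to 991 (median 957, against 926). Scores of 900 or more were reached by 6 of the 8, and by 56.7% of all main ORFs. Cd274 reached 991, the highest score in the list, and 98.5% of all main ORFs scored lower. Icam1 (989) and Cd40 (985) followed, then Cd83 (962), Fscn1 (952) and Cd86 (945). The main ORFs of Cd80 (736) and Pdcd1lg2 (591) stood apart, with 17.9% and 6.58% of all main ORFs below them. In both genes a shorter ORF in the same frame had the high score: 986 in Cd80 and 950 in Pdcd1lg2. With the highest-scoring ORF of each gene the range over the 8 genes narrowed to 945 to 991, with a median of 973.5 against 941 over all families. As the scores have no replicate, differences of a few points between genes cannot be ranked.

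**Figure D1:**
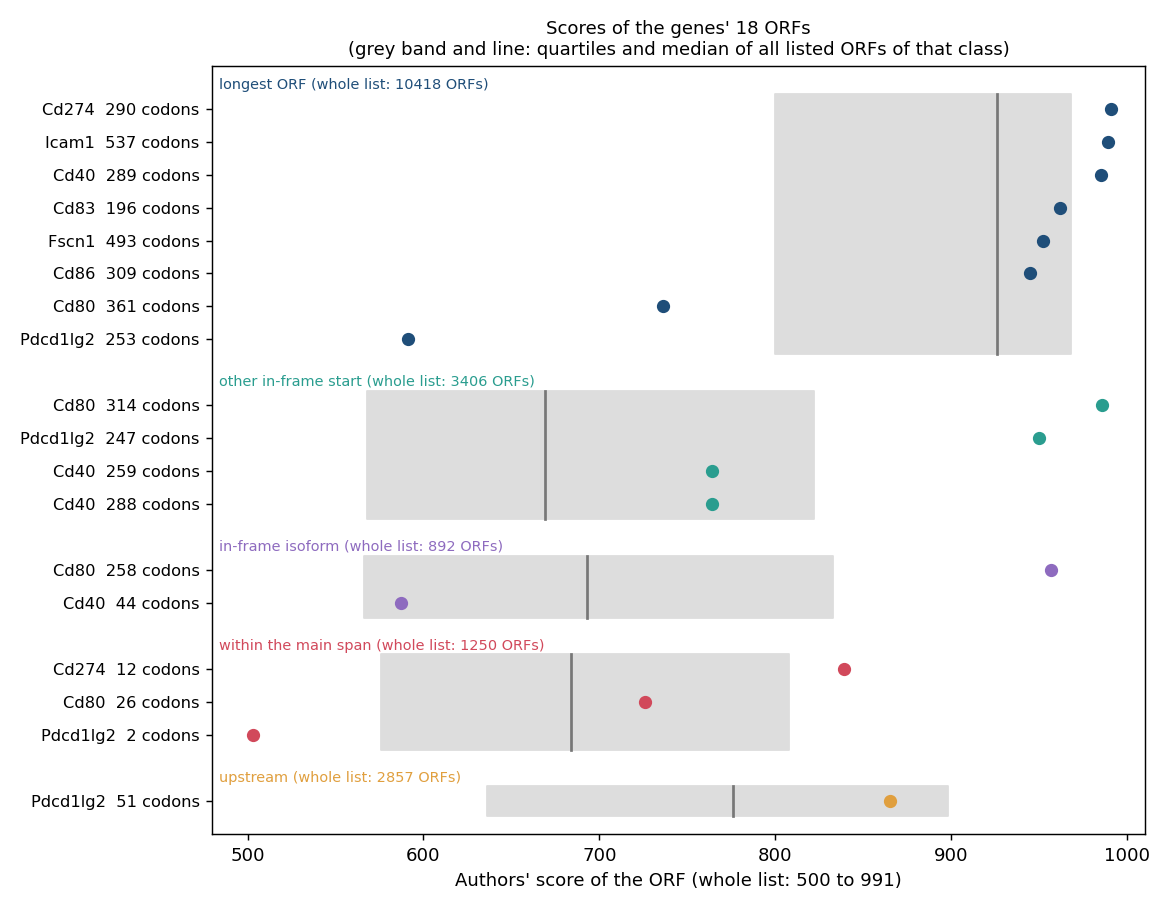
Scores of the 18 ORFs, 1 row per ORF and grouped by class; the horizontal axis is the authors' score, with no unit. Grey bands and lines are the quartiles and medians of all listed ORFs of each class; Cd80 and Pdcd1lg2 lie left of the band among longest ORFs (736 and 591) and right of it among other in-frame starts (986 and 950).

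Cd80 had 4 ORFs, as did Pdcd1lg2 and Cd40, the most of the 8 genes. The gene lay on the plus strand of chromosome 16, and its transcripts spanned bases 38458322 to 38498835. Its main ORF of 361 codons (38459096 to 38486483, 5 coding exons) scored 736. An ORF of 314 codons at the same stop began at 38459237, 141 bases and 47 codons further in, and scored 986. Only 19 of the 3406 ORFs from another in-frame start in the list scored as high or higher, itself included. Both ORFs were listed on a transcript of the same 6174 bases, with 774 bases before the longer and 915 before the shorter, so they differed in the start alone. The gain of 250 points over the main ORF was matched or exceeded by 14.0% of ORFs from another in-frame start.

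The third ORF of Cd80, with 258 codons (38459237 to 38479471), scored 957 and used the same inner start as the 314-codon ORF. It shared 244 whole codons with it, then ran 44 bases past the splice site at the end of coding exon 3, the stop codon included, which gave 14 codons found in no other Cd80 ORF, the first of them split by the end of that exon. Its transcript ended there in a last exon of 1352 bases. It thus left out 70 codons of the 314-codon ORF, those of coding exons 4 and 5 and the 1 split at the end of exon 3. In the textbook layout of B7 genes, exons for an immunoglobulin V-like and a C-like domain come first and exons for the transmembrane segment and the cytoplasmic tail follow; where these domains fall in the ORFs listed was not checked here against a protein sequence. The last Cd80 ORF had 26 codons (38479260 to 38479340), scored 726 and lay in coding exon 3 from main codon 236 on, in the frame shifted by 1 base. It was listed on another transcript, without the main start, of 14696 bases. The Cd80 transcripts overlapped those of Poglut1, a listed family on the minus strand. Whether the scoring used strand is not given in the sources used here.

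Cd86, the second ligand of CD28, was listed with its main ORF alone. This ORF had 309 codons in 7 coding exons on the minus strand of chromosome 16 (36606640 to 36666047), 116 bases before it on the transcript, and a score of 945. Over all families 43.7% held the main ORF alone, and 4 of the 8 genes here did: Cd86, Cd83, Icam1 and Fscn1. Cd80 and Cd86 thus had 4 ORFs and 1 ORF, and the highest score of the former was 986 against 945. The listed transcripts of these 2 genes were 1792158 bases apart on chromosome 16, on opposite strands, with 12 listed families between them.

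Cd274, which encodes PD-L1, had 2 ORFs on the plus strand of chromosome 19. The main ORF of 290 codons (29446958 to 29459902, 6 coding exons) scored 991 and had 422 bases before it on its transcript. An ORF of 12 codons (29448090 to 29448128) lay inside its second coding exon, from main codon 32 on, in the frame shifted by 1 base, and scored 839. Of the ORFs within a main span, 242 of 1250 scored as high or higher, and the class had a median of 684. The transcripts of Cd274 overlapped those of Plgrkt, listed on the minus strand.

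Pdcd1lg2, which encodes PD-L2, began 22462 bases after the end of the Cd274 transcripts on the same strand, with no listed family between them. It had 4 ORFs, each of another class. The main ORF of 253 codons (29485627 to 29529067, 5 coding exons) scored 591, and an ORF of 247 codons at the same stop, from 29496874 on, scored 950. The gain of 359 points was matched or exceeded by 5.17% of ORFs from another in-frame start, and 176 of these 3406 scored 950 or more. These starts were 6 codons apart, but an intron separated them: the longer ORF had 5 bases in its first coding exon and 13 in the second before the inner start was reached. The 247-codon ORF was listed on another transcript, of 6017 bases, which began downstream of that first exon and held 2507 bases before the ORF. On the transcript of the main ORF the same start would follow 598 bases. The 2 scores therefore belong to different transcripts as well as to different starts, and the list does not separate these.

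Pdcd1lg2 was the sole gene of the 8 with an upstream ORF, against 20.2% of all families (ORFs that run over the main start included). Among ORFs of 30 codons or more it was 1 of 8 against 8.60%, and among those at or above the median score of 847 it was 1 of 8 against 7.92%, so the side of the list's share on which the genes fell turned with the setting. It had 51 codons (29485455 to 29485610), all in the first exon of the main ORF's transcript, and scored 865, against a median of 776 for upstream ORFs. It was long for its class: 11.5% of 2857 upstream ORFs had 51 codons or more, and the median was 16. Its stop codon ended 16 bases before the main start, in a frame shifted by 1 base, and 34 bases before the inner start on the same transcript. Of the 2674 upstream ORFs on a transcript that held the main start, 8.49% ended as near or nearer, and the median distance was 117 bases. Because the transcript of the 247-codon ORF lacked that exon, the upstream ORF was on the transcript of the low-scoring start and not on that of the high-scoring one. The last ORF had 2 codons (29511808 to 29511816), lay at main codon 54 in the frame shifted by 2 bases, and scored 503, near the floor of the list. ORFs of 2 codons or fewer made up 1.10% of the list.

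**Figure D2:**
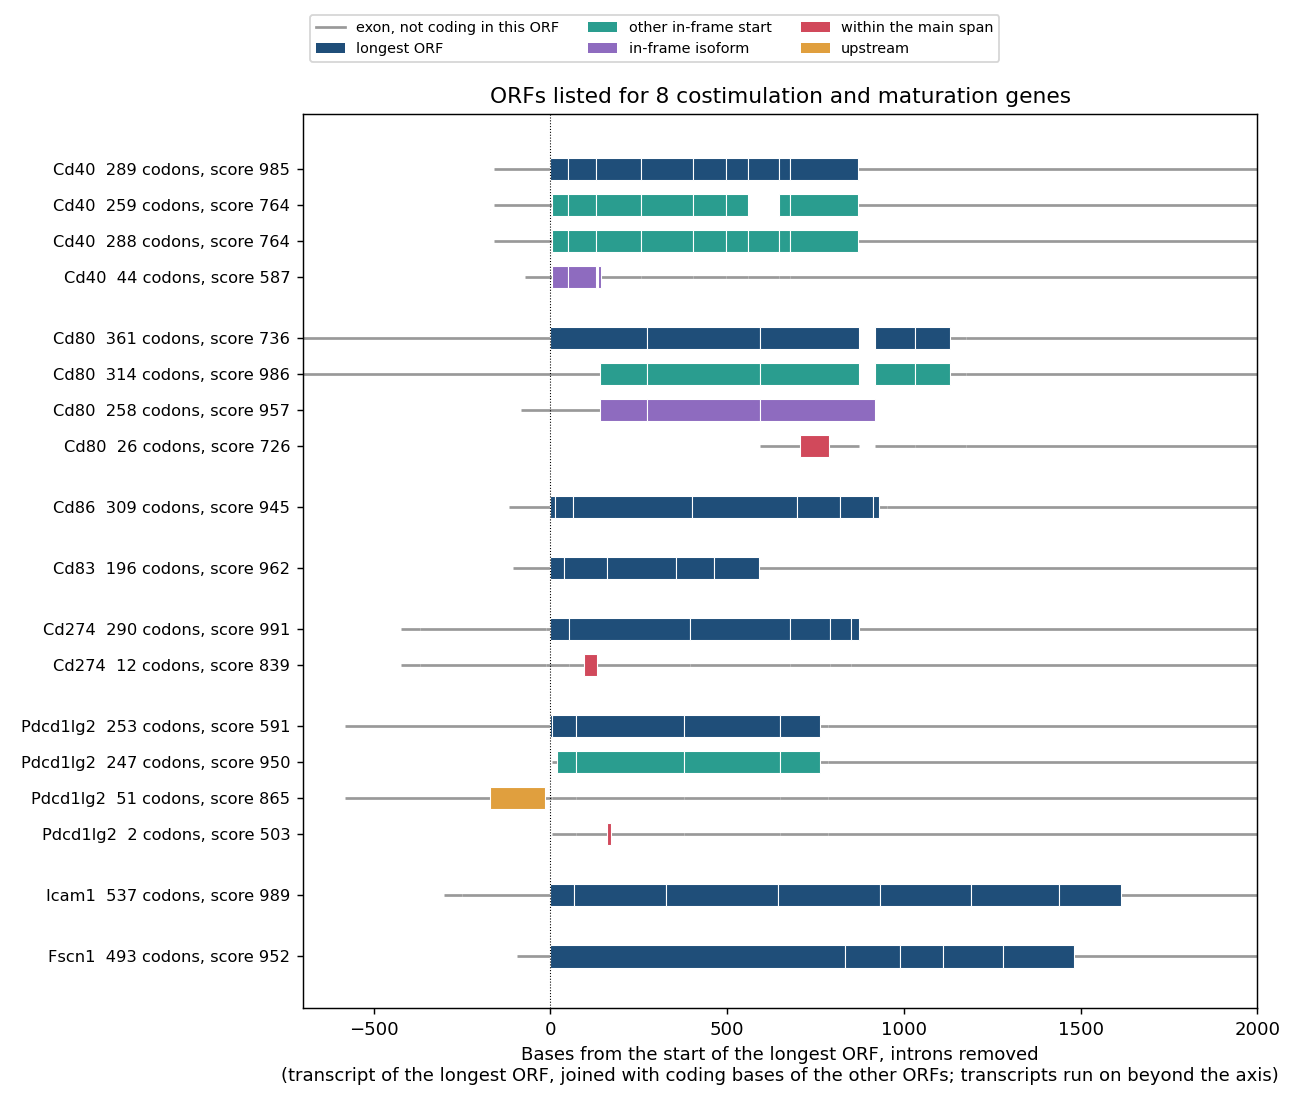
The 18 ORFs of the 8 genes, introns removed, on the transcript of each gene's longest ORF joined with coding bases of the other ORFs. The horizontal axis is bases from the start of the gene's longest ORF, and transcripts run on beyond it. Filled blocks are coding exons coloured by class, and grey lines are exons outside the ORF. Other stretches found only on other transcripts are not drawn, such as most of the 2507 bases before the 247-codon ORF of Pdcd1lg2. The inner starts of Cd80 (141 bases) and Pdcd1lg2 (6 codons), the Cd40 ORF without exon 7 and the upstream ORF of Pdcd1lg2 can be read off.

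Cd40, the receptor through which T cells return a signal, had 4 ORFs from 2 start codons on the plus strand of chromosome 2. The main ORF of 289 codons (164881208 to 164896413, 9 coding exons) scored 985. An ORF of 288 codons began at the next codon, at 164881211, and scored 764, so here the outer start had the higher score, unlike in Cd80 and Pdcd1lg2. Of the 3147 ORFs whose other in-frame start is a codon of their main ORF, 92 (2.92%) began exactly 1 codon inside. The median was 23 codons. A start shared by several such ORFs, as in Cd40, is counted for each of them. The third ORF, of 259 codons and from the same inner start, also scored 764. It left out exon 7, whose 87 bases equal 29 codons in length but begin and end inside a codon. The frame was thus kept to the common stop, with 258 codons shared with the main ORF and 1 of its own. ORFs of a gene with a common start had the same score in 74.7% of 2749 such sets, so a score need not be specific to a form; the scores from the inner starts of Cd40 (764, 764 and 587) and Cd80 (986 and 957) were not all equal. The fourth ORF, of 44 codons (164881211 to 164888172), scored 587. Its exon 3 began 4 bases later, which left 42 whole codons shared with the main ORF, 2 codons of its own, and a stop codon 536 bases before the last exon junction of its transcript.

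In-frame starts at the main stop were thus listed for 3 of the 8 genes, Cd40, Cd80 and Pdcd1lg2, against 23.0% of all families. With splice variants of the main start and stop counted too, it was the same 3 genes against 37.8%. In 2 of them, Cd80 and Pdcd1lg2, the inner start outscored the main ORF, against 10.6% of families. Of all 3406 ORFs from another in-frame start, 42.7% scored above their main ORF. In-frame isoforms with another stop codon were listed for 2 of the 8, Cd40 and Cd80, against 6.75%. ORFs within the main span that share no codon with the main ORF were listed for 3 of the 8, Cd80, Cd274 and Pdcd1lg2, against 8.62%. The frame was read for these 3 genes, where it was shifted, but not over all families. Families with 4 or more ORFs made up 14.3% of all, and 3 of the 8 genes were among them. With 8 genes, 1 gene more or less moves each of these shares widely, and no difference from the list was tested.

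Icam1, the adhesion ligand of LFA-1, had 1 ORF of 537 codons on the plus strand of chromosome 9 (20820479 to 20832390, 7 coding exons) with a score of 989. It was the longest of the 8 main ORFs, and 95.9% of all main ORFs scored lower. Its transcript held 301 bases before the start. No other start, frame or isoform of Icam1 was listed.

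The 2 maturation marks were likewise listed with 1 ORF each. Cd83, which encodes a surface glycoprotein of mature dendritic cells, had the shortest main ORF of the set, 196 codons on the plus strand of chromosome 13 (43880583 to 43897054), with a score of 962. Fscn1, which encodes the actin-bundling protein of dendritic cell extensions, had 493 codons on the plus strand of chromosome 5 (143722128 to 143733777) and a score of 952. Their transcripts held 107 and 94 bases before the start, the shortest stretches of the 8 genes, for which the median was 230 against 186 over all families.

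Flt3, the receptor for a growth factor of dendritic cell precursors, and Cd209a, a lectin of the DC-SIGN family, had no ORF in the list used here. With bulk libraries, fewer cells of a type and less RNA per cell cannot be told apart, and an ORF that scored under 500 would not be seen. The ligand gene Flt3l, looked up after the values of Flt3 had been seen, was listed on chromosome 7. An ORF of 232 codons (52387484 to 52391420) scored 580, and an ORF of 215 codons (52387484 to 52391129) scored 729. Positions run from lower to higher whatever the strand, so the shared position need not be a start. The growth factor receptor Kit was listed with 961 codons and a score of 771.

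Exon phases, which had no part in the choice of the genes, were counted over their main ORFs and differed from gene to gene. An exon's phase is the number of bases of a split codon that precede its boundary; exons that begin and end in phase 1 can be joined in series without breaking the frame, and immunoglobulin domains are classically encoded by such exons. Of the 33 internal coding exons of the 8 main ORFs, 20 (60.6%) ran from phase 1 to phase 1, against 10.2% of 91710 such exons over all main ORFs. All 5 internal exons of Icam1 did so (261, 315, 288, 258 and 249 bases), as did all 4 of Cd274 (342, 285, 111 and 60 bases) and all 3 of Cd80 (318, 282 and 114 bases). Pdcd1lg2 had 2 of 3 (306 and 270 bases), Cd86 2 of 5 (336 and 297 bases) and Cd40, a receptor of the TNF receptor family, 3 of 7 (126, 147 and 87 bases). Fscn1, which is no immunoglobulin protein, had 1 of 3. Cd83 has an immunoglobulin-like domain and had 0 of 3. The left-out exon 7 of Cd40 was itself 1 of these exons. Icosl, the ligand of ICOS and the other listed B7 gene, had 4 of 5.

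**Figure D3:**
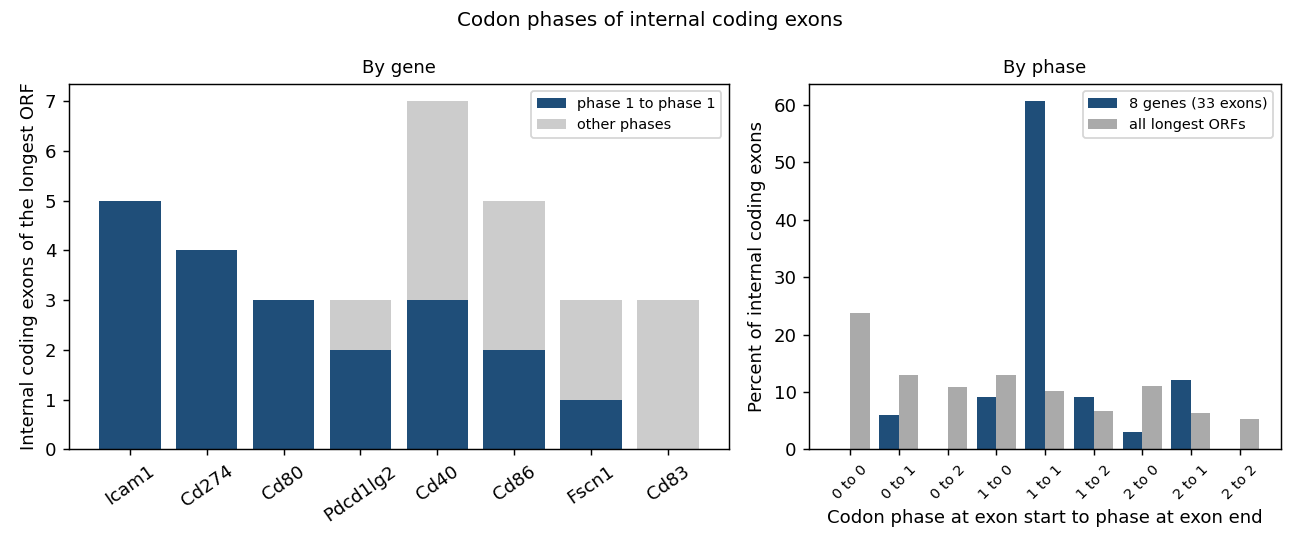
Left, the number of internal coding exons of each gene's longest ORF, with those from phase 1 to phase 1 in dark blue; right, the percent of internal coding exons with each pair of phases, for the 8 genes (33 exons) and for all longest ORFs. The pair 1 to 1 holds 60.6% of the exons of the 8 genes and 10.2% of all.

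The stop codons of the 4 B7 ligands lay close to the last exon junction. The stop of Cd80 ended 46 bases before it, those of Cd86 and Pdcd1lg2 each 23 bases before it, and that of Cd274 23 bases after it. The other 4 genes stopped further into the last exon: Cd83 by 129 bases, Icam1 by 176, Cd40 by 192 and Fscn1 by 203. Stops within 50 bases on either side were thus found in 4 of the 8 genes, against 13.0% of the 10187 main ORFs with at least 2 exons. Before the junction lay 3 of the 8 stops (37.5%) and 10.5% of all. Icosl, listed with 322 codons and a score of 952, stopped 11 bases after its last junction. As background, a stop codon well ahead of the last junction can expose an mRNA to nonsense-mediated decay; decay was not measured here.

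**Figure D4:**
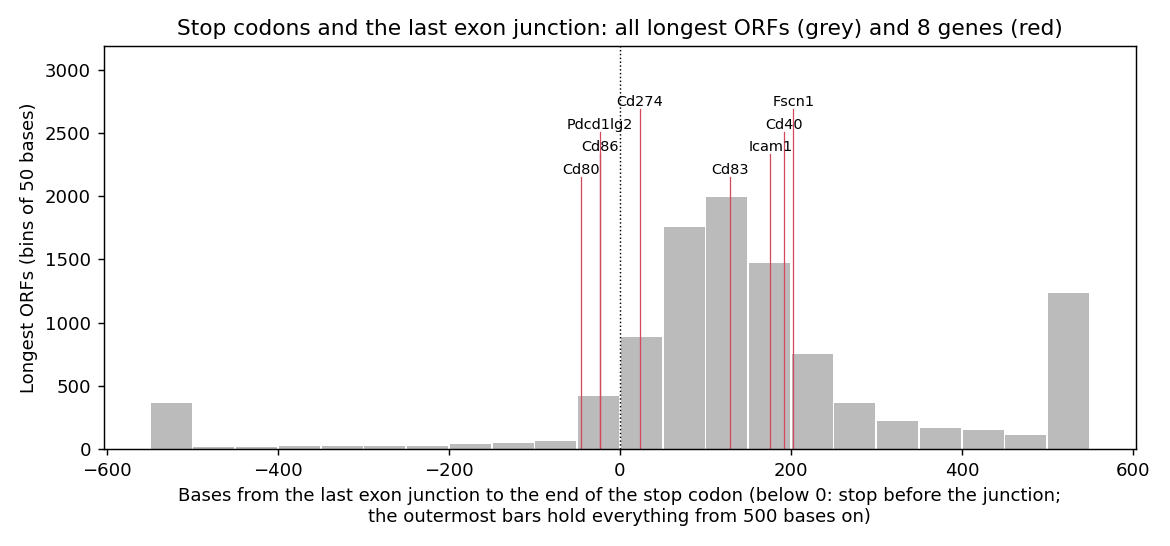
Distance in bases from the last exon junction to the end of the stop codon for all longest ORFs with at least 2 exons (grey bars, bins of 50 bases, vertical axis the number of ORFs) and for the 8 genes (red lines, whose height has no meaning). The lines of Cd86 and Pdcd1lg2 coincide at 23 bases before the junction; Cd80 lies at 46 before, Cd274 at 23 after, and the other 4 genes from 129 to 203 after.

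The number of ORFs in each class gave the only pattern by which other genes could be likened to these. Only 11 families, itself included, had the class counts of Cd40, 7 those of Cd80 and 11 those of Pdcd1lg2, and none was a related gene considered here. The pattern of Cd274, a main ORF with 1 ORF inside its span that shares no codon with it, was held by 205 families. Among them were Batf3, Cd200 and Marcksl1. That of Cd86, Cd83, Icam1 and Fscn1 was held by 4549, among them Aldh1a2, Birc2 and Ccl22.

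Other genes of the same pathways were described through 7 lists with 73 further genes, of which 54 (74.0%) had an ORF. Over all protein-coding genes of the RefSeq table used for naming, the share was 46.0%. Of these 54, 9 (16.7%) had an upstream ORF and 10 (18.5%) another in-frame start, against 20.2% and 23.0% of all families. The 54 and the 9 include Xcr1, whose listed main ORF may belong to a neighbouring gene. Among the B7 ligands, 5 of 8 were listed, and Cd276, Vtcn1 and Vsir had no ORF. Of the 12 costimulatory genes of the TNF families, Cd40 included, 9 were listed. There Tnfsf8 (220 codons, score 969) had an ORF over its main start, and Tnfrsf9, which encodes 4-1BB (256 codons, 964), and Tnfrsf14 (276 codons, 983) had 1 upstream ORF each; Tnfsf14, Cd70 and Tnfrsf4 had no ORF. Upstream ORFs were thus listed for 3 of the 8 TNF family genes other than Cd40, against 20.2% of all families, and Cd40 had none. No difference from the list was tested.

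All 9 genes of signalling below CD40 were listed. Tank and Traf5 had 5 ORFs each, with 2 upstream or over the main start in either; Birc3 had 4, among them 1 over its main start and 1 other in-frame start, and Traf6 had 2, of which 1 was another in-frame start. All 17 adhesion and contact genes were listed, 5 of them with another in-frame start, against 23.0% of all families. Sirpa, whose product binds CD47, had 4 ORFs from another in-frame start, not necessarily 4 different starts. Its main ORF of 521 codons scored 530. Itgb2, which encodes the shared chain of LFA-1 and other integrins, had 2 such ORFs, and Pvr and Pvrl2 1 each. Of the 15 genes of the maturation programme 13 were listed, Lamp3 and Ido1 not. Il15 (176 codons, score 828) had 2 upstream ORFs and Ccl17 (103 codons, 977) another in-frame start.

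Of 17 lineage and uptake genes 9 were listed, and Flt3, Cd209a and the other 4 Cd209 genes were among the 8 with no ORF. Zbtb46 (600 codons, score 976) and Mrc1 (1463 codons, 676) had another in-frame start. Xcr1 was listed with a main ORF of 1438 codons, a length that may belong to a neighbouring gene. Its upstream ORF is included in the counts above but is not interpreted. None of the 5 T cell partners, Cd28, Ctla4, Pdcd1, Icos and Cd40lg, had an ORF; the 4 genes whose products bind CD28, CTLA-4 and PD-1, and the receptor gene Cd40, were all listed.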

How the data were processed

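Ribosome footprint libraries of bone marrow-derived dendritic cells were analysed through the 1 list of ORFs that the labels name for every library. The submitters' processing notes name Bowtie2, TopHat and mm9 without a role or version. Neither the program that called ORFs nor the transcript annotation is given in the sources used here. The score in the deposited list was assigned by the authors to each ORF and serves here to describe and rank ORFs of this list and no more. No line scores under 500. For each of the 22367 ORFs, the length its name gives equalled its coding bases without the stop codon.

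Here, ORFs were grouped by gene name, chromosome and strand. In each family the longest (of equals, the higher-scoring) was taken as main ORF, and the others were classed by start, stop and shared codons against it. Names were matched to RefSeq symbols of another assembly, GRCm38.p6, used for no coordinates: 9446 families matched directly, 650 by an older name, 127 once a number was dropped, and 195 did not match. "Upstream" counts ORFs over the main start unless stated. Coordinates are 1-based. The members and lists were chosen with earlier results of these data known. All 10 genes were named with all their ORFs; of each related list, up to 4 genes with an upstream ORF or other in-frame start, those with most ORFs first, and up to 3 with none. Icosl, Kit and Flt3l were named after their values were seen, as were the adhesion genes of the closing observations. Exon phases and stop distances were measured after the list had been seen. Class and phase rules were tested on simulated data in which all ORFs of a family lay on the same transcript. In-frame isoforms and splice variants of the main start and stop were not simulated. No protein or mm9 genome sequence was used here, so start codons were not read. Python 3.11.15 and matplotlib 3.10.9 were used. Alternatives were stricter scores, a length minimum, the highest-scoring ORF as main ORF, 1 ORF per stop codon and other family names.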

Additional observations from a re-analysis of the deposited data

How the results depend on the processing

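The counts and medians of the genes stayed close to those reported in 47 of the values recomputed for 9 results under 11 settings, and moved in 8. A fall from 18 to 14 ORFs, with 1 ORF per stop codon, was counted as close. The share over all families moved more, and with it the side on which the genes fell. With a score of 900 or more, 9 of the 18 ORFs were left, with 0 genes with an upstream ORF (5.70% of all families), 0 with another in-frame start (0.427%) and 1 gene, Cd80, with any further ORF (25.1%). With a score at or above the list's median of 847, 10 ORFs were left, with 0 genes with another in-frame start (1.20%) and 2 genes, Cd80 and Pdcd1lg2, with any further ORF (28.0%). In both, the inner-start ORFs of Cd80 (986) and Pdcd1lg2 (950) passed and became the main ORFs. Counting 1 ORF per stop codon left 0 genes with another in-frame start, by construction, and 4 of 8 with any further ORF against 31.2%, where it was 4 of 8 against 56.3% before. Chosen after seeing the data: the highest-scoring ORF as main ORF gave 20 of 32 exons from phase 1 to phase 1 (10.1% of all) and 4 stops near the last junction (12.8%); distances of 25 and 100 bases gave 3 (6.30%) and 4 (31.0%). No paired analysis was possible because the list has no value per library. Depth and expression of each gene, which bear on whether an ORF is listed and how it scores, are unknown here.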

Other observations

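Over all main ORFs, 10.2% of internal coding exons ran from phase 1 to phase 1. In the related genes outside the set the share was 38.3% in adhesion and contact (49 of 128), 38.1% in the other TNF family genes (8 of 21), 27.3% in the maturation programme (12 of 44), 19.0% in lineage and uptake (20 of 105) and 15.0% in CD40 signalling (9 of 60). The lineage and uptake share includes Xcr1, with 0 of 15, whose listed main ORF may belong to a neighbouring gene. Named after their values were seen, Icam2 and Cd48 had 2 of 2 such exons, Slamf8 3 of 3, Cd47 6 of 7 and Ly9 6 of 8. These were among the highest shares of the adhesion and contact genes. Cd44 had 5 of 8, Pvrl2 2 of 7 and Alcam 2 of 13. The integrin chains Itgb2 and Itgal had 1 of 13 and 0 of 29. Stops within 50 bases of the last exon junction were listed for 4 of 16 adhesion and contact genes, against 13.0% of all main ORFs: Cd84 (0 bases after it), Cd47 (9 after), F11r (36 after) and Alcam (24 before). They were listed for 2 of 11 maturation genes, 2 of 9 lineage and uptake genes, and 0 of the 8 TNF family and 9 CD40 signalling genes.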
